A study of Homo sapiens with 5 samples.

Results

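The genes of cholesterol and lipid synthesis described here are 34 genes that make cholesterol from acetyl units, control or move sterols, or make and modify fatty acids. They were taken by gene symbol from the annotation of the array. Of the 34 genes, 33 had a named probe (45 probes), among 20045 genes with a named probe on the array, and FDFT1 was not analysed here. The cells were of the established line H9, from a human embryo and pluripotent, kept in E6, a defined medium that was changed daily. Total RNA was sampled at weeks 2, 4, 6 and 8 of differentiation toward cells like those of the corneal epithelium and at week 0, before differentiation. The labels name no allele or agent that sets the weeks apart. There was 1 array per week, which the labels call a non-replicate, so every difference below is one between 2 arrays and has no error from replicates.

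Cells make cholesterol by joining acetyl units into mevalonate, turning mevalonate into isoprene units and squalene, and closing squalene into a ring that further enzymes trim to cholesterol. The transcription factors SREBP-1 and SREBP-2, encoded by SREBF1 and SREBF2, switch on most of these genes when membrane sterol is low, while the escort protein SCAP and the retention proteins INSIG1 and INSIG2 decide whether they leave the endoplasmic reticulum. Fatty acid synthesis shares the acetyl units and much of the SREBP control. In surface epithelia and at the ocular surface, lipids serve membranes and the barrier.

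Levels are log2 values after background correction and quantile normalization, and above background means a detection p-value under 0.01. A call, higher or lower, needed a difference of 2-fold or more between 2 arrays and a brighter array above background. Where the dimmer array was below background the difference is a lower bound, written "at least". Levels of different genes were not compared. The arrays held between 16993 (week 0) and 18358 (week 8) probes above background. Of 11 pluripotency markers with a probe, 7 were above background at week 8 and 10 at week 0, and their summed linear level was 3912 at week 8 against 46990.0 at week 0. Of 12 markers of surface and corneal epithelium, 9 were above background at week 8 and 3 at week 0, while KRT3, KRT12 and DSG3 were below background on all 5 arrays. Of 16 genes of dividing cells 15 were above background at week 8 and 16 at week 0, with summed levels of 8911 and 43803. Stromal fibroblast markers summed to 48091 at week 8 and 3864 at week 0, and neuronal markers to 9353 and 3008, with a highest sum of 24779 at week 4. Markers of pigment cells and retinal pigment epithelium summed to 30425 at week 8 and 1425 at week 0, with 7 of 8 called higher, and lens markers to 8204 and 363, with 5 of 6 measured called higher. The part that these changes in cell makeup play in the results below was not tested, and in bulk RNA a change in the share of a cell type and a change in RNA per cell cannot be told apart. Hepatocyte and endoderm markers summed to 33472 at week 8 and 1108 at week 0, with TTR as the single gene of that list called higher at week 8. AFP and FOXA2 were called lower, of 5 measured, and the median difference of the list was -0.02. Above background were 4 of the 11 with a probe at week 8 and 3 at week 0. Of 7 adipocyte markers with a probe, 4 were above background at week 8 and 3 at week 0, with summed levels of 594 and 404. All 4 measured at week 8 lay above week 0 and PPARG was called higher, while ADIPOQ, PLIN1 and FABP4 were below background on all 5 arrays.

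Most lipid genes above background on all 5 arrays kept their level within 2-fold through the 8 weeks, and a few moved far. Of the 33 genes, 30 were measured above background on 1 array or more and 25 on all 5, and IDI1, CYP51A1 and INSIG2 were below background on all arrays. INSIG1, NPC2 and HMGCS1 were called higher than week 0 at 1 week or more, ELOVL6, ACAT2, ACLY, EBP and AACS were called lower, and the other 22 measured genes were not called at any week. For MVK and SREBF2 a 2-fold fall could not have been called. Their week 0 levels were 5.87 and 6.20, and the lowest values above background on the arrays were 5.46 to 5.67. FDPS, HSD17B7 and FADS2 were below background at week 0, so no fall could have been called for them either. At week 2, none of 26 measured members was higher, against 10.7% of all genes measured, and 1 was lower, against 9.28%. At week 4, 1 of 28 was higher (14.0% of all genes) and 2 were lower (11.5%). At week 6, 2 of 29 were higher (15.8%) and 4 were lower (14.1%). At week 8, 3 of 27 measured members were higher, which is 11.1% against 16.8% of 12346 genes, and 3 were lower, again 11.1%, against 15.4%. With the processing used for these counts, none of these shares was above that of all genes. Without background correction, 2 of 28 members (7.14%) were lower at week 4, above the 4.73% of all genes. ACAT2, ACLY and ELOVL6 stayed lower at weeks 6 and 8 in that setting, a larger share of members than the 6.54% and 7.64% of all genes. They also stayed lower on the authors' processed values, again a larger share than the 6.22% and 7.2% of all genes. With arrays scaled to a common 75th percentile, 7 of 29 members were lower at week 6 and 6 of 27 at week 8, slightly above the 20.4% and 20.5% of all genes under that scaling. Among the 25 genes above background on all arrays, the range over the 5 arrays had a median of 0.85 on the log2 scale and was under 1 for 17 (68.0%), against a median of 0.99 and 50.3% for the 9049 genes above background on all arrays. The split of all calls depended on scaling: at week 8 higher genes made up 52.1% of calls with quantile normalization and 41.9% with the 75th percentile scaling, under which the median of all genes moved to -0.17.

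**Figure D1:**
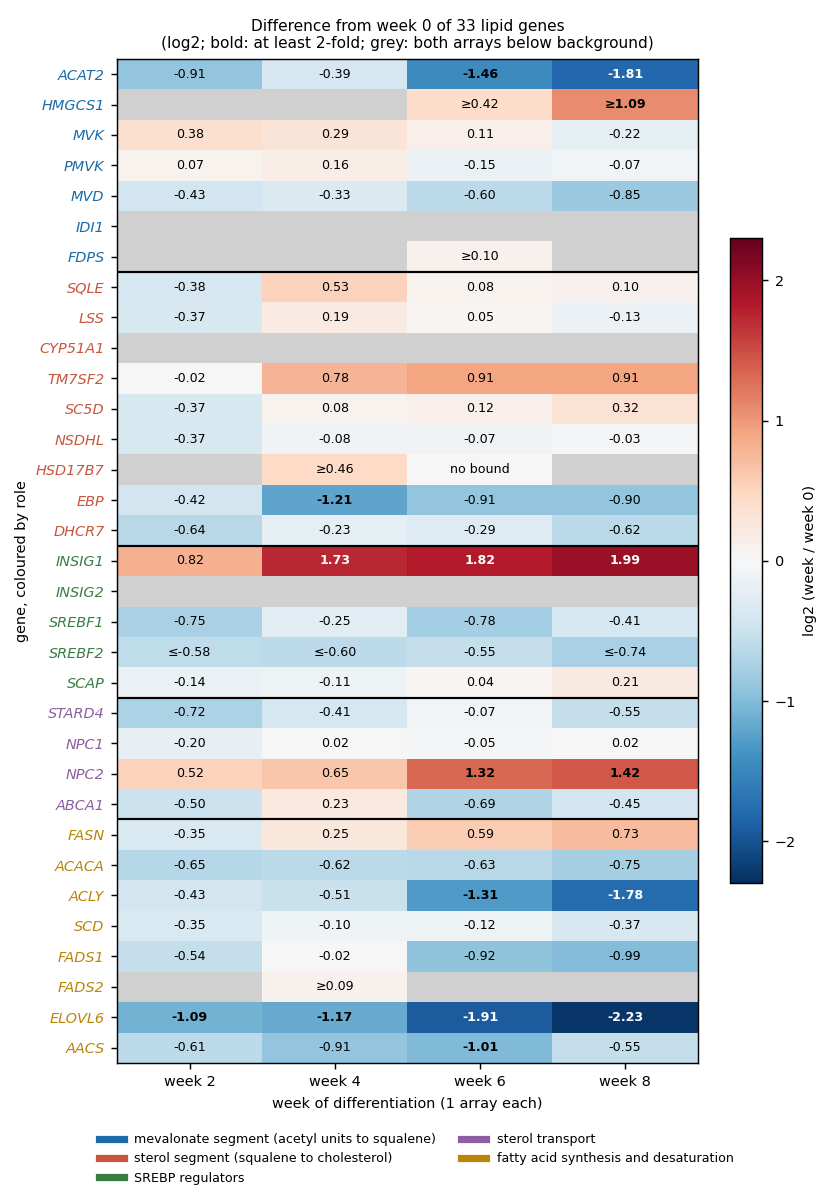
Differences from week 0 (log2) of the 33 genes with a probe, grouped by role, at weeks 2, 4, 6 and 8, with 1 array per week. Bold values passed 2-fold, values with an inequality sign are bounds, and grey cells were below background on both arrays. The deepest colours belong to INSIG1 (1.99 at week 8) and ELOVL6 (-2.23), and most other cells lie within 1 of 0.

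In the mevalonate segment, which runs from acetyl units to squalene, ACAT2 fell, HMGCS1 rose late and the other genes were not called. ACAT2 encodes the cytosolic thiolase that joins acetyl units at the entry of the pathway (gene on chr6:159762045-159779112, GRCh38.p14). Its deposited signal was 6119, 2573.5, 3449.8, 1640.5 and 1662.6 at weeks 0, 2, 4, 6 and 8, and its normalised level was 12.26, 11.35, 11.87, 10.80 and 10.45. It was highest on the week 0 array and lowest on the arrays of weeks 6 and 8. ACAT2 was 2.75-fold lower at week 6 and 3.52-fold lower at week 8 than at week 0, and the step from week 4 to week 6 alone was 2.10-fold. A second, dimmer ACAT2 probe had log2 differences of at least -1.97 at week 6 and at least -2.09 at week 8.

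HMGCS1 encodes the cytosolic synthase that makes HMG-CoA. Its signal was 127.3, 123.2 and 128.7 at weeks 0, 2 and 4, all below background, and 173.3 and 242.3 at weeks 6 and 8, both above it. It was at least 2.14-fold higher at week 8 than at week 0. This is a dim probe, and the call was lost without background correction, where the difference was 0.41, with an offset of 50 and on the authors' processed values. MVD, which makes isopentenyl diphosphate, had levels of 7.53, 7.10, 7.20, 6.93 and 6.68 over the 5 arrays and a week 8 difference of -0.85, short of a call. The mevalonate kinase gene MVK and the phosphomevalonate kinase gene PMVK differed from week 0 by 0.38 or less in size at every week. MVK was close to background, with signals of 165.0 to 175.5 where the lowest signals above background were 151.1 to 162.6. FDPS, which makes farnesyl diphosphate, was above background at week 6 alone, with a bound of 0.10, and IDI1, the isomerase gene, was not measured.

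In the sterol segment, from squalene to cholesterol, EBP was lower at week 4 and no gene was called at week 8. EBP encodes the sterol isomerase that shifts a double bond late in the pathway (chrX:48521808-48528716). Its signal was 2115.7, 1289.5, 779.5, 891.2 and 1119.6 at weeks 0, 2, 4, 6 and 8, with week 0 above all later weeks. EBP was 2.31-fold lower at week 4 than at week 0, and its differences at weeks 6 and 8 were -0.91 and -0.90. TM7SF2, a sterol reductase gene, lay on the other side, with signals of 575.9, 506.8, 793.7, 824.6 and 1023.4 and differences of -0.02, 0.78, 0.91 and 0.91, none of them called.

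SQLE, the squalene epoxidase gene and a control point of the pathway, had its highest level at week 4 (12.44) and its lowest at week 2 (11.54), and a second probe had the same order at these weeks (10.12 and 9.05). At week 8 SQLE differed from week 0 by 0.10 and on the second probe by -0.30. LSS, which closes the ring, and the dehydrogenase gene NSDHL differed by -0.13 and -0.03 at week 8, and the desaturase gene SC5D by 0.32. DHCR7, the last reductase of its branch, differed by -0.62 at week 8, and a second probe by 0.07. HSD17B7, a keto-reductase gene, was above background at weeks 4 and 6 alone, with a bound of 0.46 at week 4, and CYP51A1 was not measured.

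Among the regulators, INSIG1 rose and the genes of the SREBP factors and SCAP were not called. INSIG1 (chr7:155297878-155310235) encodes the protein that holds the SCAP and SREBP complex in the endoplasmic reticulum when sterol is plentiful, and it is itself an SREBP target. Its signal was 273.9, 378, 617, 631.7 and 855 at weeks 0, 2, 4, 6 and 8, so that every later array lay above week 0. INSIG1 was 3.31-fold higher at week 4, 3.54-fold at week 6 and 3.98-fold at week 8 than at week 0, and its difference at week 2 was 0.82. A second INSIG1 probe, close to background on every array, had signals of 161.6, 150.5, 155.4, 148.7 and 165.4 and a week 8 difference of -0.25. The mean of both probes differed by 0.87 at week 8, so the call rests on the brighter probe.

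SREBF1, which encodes SREBP-1, had levels of 8.54, 7.79, 8.28, 7.76 and 8.13, lowest at weeks 2 and 6, and a week 8 difference of -0.41. A second SREBF1 probe differed by -0.98 at week 8. SREBF2, which encodes SREBP-2, the main activator of cholesterol synthesis, was above background at weeks 0 and 6, with a difference of -0.55 at week 6 and of at least -0.74 at week 8. SCAP stayed between 10.40 and 10.75.

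SREBF2 alone of the genes with a promoter sequence matched the single form of sterol response element that was searched. The promoters shown next are its own and those of 3 genes that were called at weeks 6 and 8. They are RefSeq sequences of build GRCh38.p14, each the 250 bases before a start of the gene (the first of 2 listed for NPC2 and ACLY), 5′ to 3′ on the gene's strand. Capitals mark the sterol response element, searched as TCACNCCAC, and the NF-Y box, searched as CCAAT, which reads ATTGG when it lies on the other strand. SREBF2 (chr22:41832855-41833104, plus strand) holds the element 133 bases and an NF-Y box 106 bases before the start. INSIG1 (chr7:155297628-155297877, plus strand) holds 1 NF-Y box, NPC2 (chr14:74493513-74493762, minus strand) holds 2 and ACLY (chr17:41919023-41919272, minus strand) holds 2.
SREBF2: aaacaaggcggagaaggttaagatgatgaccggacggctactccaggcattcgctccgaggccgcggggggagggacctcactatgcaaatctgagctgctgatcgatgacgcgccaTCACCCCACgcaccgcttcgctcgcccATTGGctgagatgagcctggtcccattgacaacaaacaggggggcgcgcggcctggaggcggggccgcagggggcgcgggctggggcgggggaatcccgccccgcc
INSIG1: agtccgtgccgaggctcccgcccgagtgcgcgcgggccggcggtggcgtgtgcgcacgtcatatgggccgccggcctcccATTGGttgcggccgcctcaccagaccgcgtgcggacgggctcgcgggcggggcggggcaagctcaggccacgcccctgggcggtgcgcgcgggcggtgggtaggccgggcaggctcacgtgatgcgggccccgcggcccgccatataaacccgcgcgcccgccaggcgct
NPC2: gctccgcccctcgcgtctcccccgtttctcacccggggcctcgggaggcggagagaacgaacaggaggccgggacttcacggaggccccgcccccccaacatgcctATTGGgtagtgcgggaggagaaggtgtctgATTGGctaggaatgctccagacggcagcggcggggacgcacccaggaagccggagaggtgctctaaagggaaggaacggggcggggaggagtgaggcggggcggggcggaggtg
ACLY: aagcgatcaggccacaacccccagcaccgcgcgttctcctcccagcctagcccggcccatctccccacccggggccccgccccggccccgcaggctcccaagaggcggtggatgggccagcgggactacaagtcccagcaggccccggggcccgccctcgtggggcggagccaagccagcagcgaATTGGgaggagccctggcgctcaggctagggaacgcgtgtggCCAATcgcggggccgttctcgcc

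Of the 34 genes, 30 had a promoter in the table, with 41 starts in all, and ACAT2, FDFT1, SQLE and FASN had none. NF-Y is a factor that binds beside SREBP at many sterol genes. Its box occurred on either strand in 23 of the 41 windows (56.1%), in 19 genes, against 32.0% of all 35116 promoters and 32.7% of the 22199 promoters of protein-coding genes. The Sp1 box, searched as GGGCGG, occurred in 37 of 41 (90.2%), against 42.6% of all and 53.7% of protein-coding promoters. The searched form of the sterol response element occurred in 1 of 41 (2.44%), against 0.883% of all promoters. ELOVL6 had neither that form nor the NF-Y box in its window. A match here is a run of letters and not a measured binding site. Other forms of the element were not searched, so a window without a match may still hold one.

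Among the genes of sterol transport, NPC2 rose and NPC1, STARD4 and ABCA1 were not called. NPC2 (chr14:74479935-74493512) encodes the soluble lysosomal protein that hands cholesterol to NPC1, which carries it out through the lysosomal membrane. The NPC2 signal was 5765.5, 6585.3, 6307.9, 9740.2 and 14184 at weeks 0, 2, 4, 6 and 8, and its level was 12.16, 12.68, 12.80, 13.48 and 13.58. Weeks 6 and 8 lay above the other arrays. NPC2 was 2.49-fold higher at week 6 and 2.68-fold higher at week 8 than at week 0, and the week 6 difference of 1.32 was 0.74 with scaling to the 75th percentile. NPC1, its partner, differed from week 0 by at most 0.20 in size at any week and by 0.02 at week 8. The cytosolic sterol carrier gene STARD4 differed by -0.55 at week 8. ABCA1, which exports cholesterol from cells, had levels of 9.29, 8.79, 9.52, 8.60 and 8.84 and a week 8 difference of -0.45.

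Among the genes of fatty acid synthesis, ACLY and ELOVL6 fell, AACS was lower at week 6 and FASN lay on the higher side without a call. ACLY (chr17:41866917-41930545) encodes the enzyme that splits citrate into the cytosolic acetyl-CoA from which both fatty acids and cholesterol are built. Its signal was 8347.8, 5256.3, 4434.1, 2480.5 and 2362.6 at weeks 0, 2, 4, 6 and 8, so that each later array lay below week 0. ACLY was 2.48-fold lower at week 6 and 3.42-fold lower at week 8 than at week 0. A second ACLY probe differed by -1.28 and -1.43 at these weeks, and at week 2 the 2 probes parted, with -0.43 on the probe used and 0.05 on the second.

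ELOVL6 (chr4:110045846-110199202) encodes the elongase that lengthens saturated and monounsaturated fatty acids of palmitate length. Its signal was 1551.7, 645.3, 610.9, 403.7 and 413.8 at weeks 0, 2, 4, 6 and 8, with week 0 above all others. It was 2.13-fold, 2.24-fold, 3.76-fold and 4.69-fold lower at weeks 2, 4, 6 and 8 than at week 0, the only gene of the list called at all 4 weeks. A second, dim ELOVL6 probe had signals of 160.2, 117.5, 121.9, 139.2 and 203, was above background at weeks 0 and 8 alone, and differed by 0.51 at week 8. The mean of both probes differed by -0.86 at week 8 and by -1.27 at week 6.

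AACS, which activates acetoacetate for lipid synthesis, had signals of 351.3, 245.9, 225.8, 219.2 and 300.1, lowest at week 6, where it was 2.01-fold lower than at week 0. That call was lost without background correction, with an offset of 50 and on the authors' processed values. ACACA, the carboxylase that makes malonyl-CoA, had differences of -0.65, -0.62, -0.63 and -0.75 at weeks 2, 4, 6 and 8, and a second probe had -0.78, -0.78, -0.54 and -0.75. FASN, the fatty acid synthase gene, had levels of 8.97, 8.61, 9.22, 9.55 and 9.70 and a week 8 difference of 0.73. SCD, the stearoyl-CoA desaturase gene, differed by -0.37 at week 8. FADS1, a desaturase of polyunsaturated fatty acids, differed by -0.99 at week 8, just short of a call, and its neighbour FADS2 was above background at week 4 alone.

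**Figure D2:**
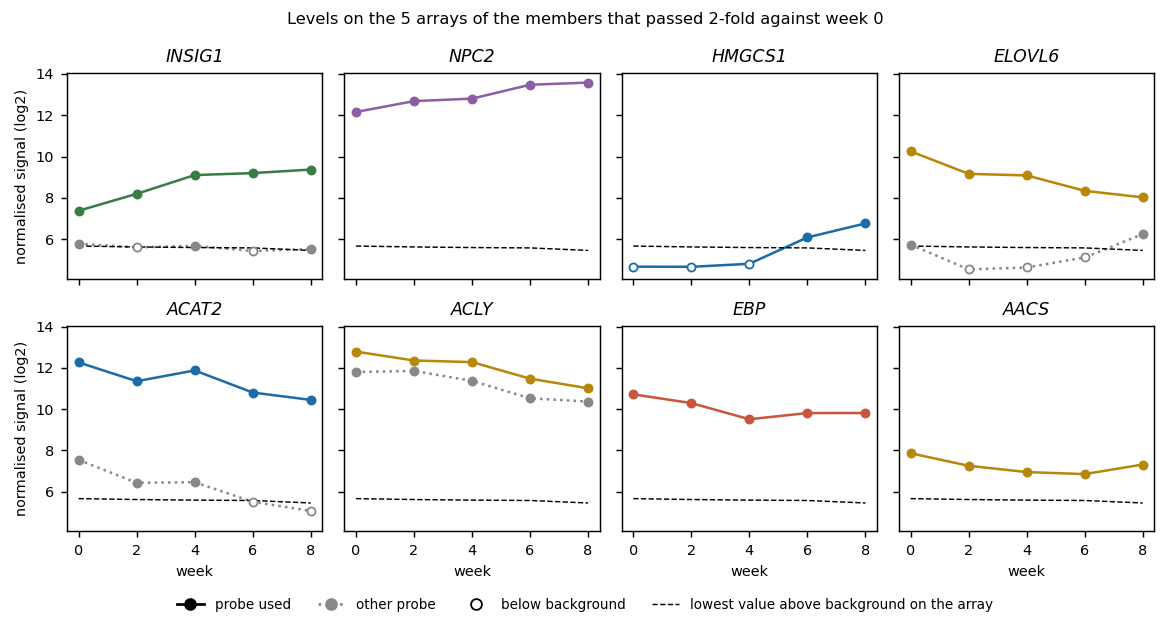
Normalised level (log2) against week, with 1 array per week, of the 8 genes that passed 2-fold against week 0, with the probe used (solid), any other probe of the gene that was above background on an array (dotted grey), values below background (open) and the lowest value above background on each array (dashed). The other probe of ACLY is also lower at weeks 6 and 8, and that of INSIG1 lies near the background. That of ELOVL6 lies near or below it up to week 6 and above it, at 6.25, at week 8.

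Several probes of 1 gene give an internal check of how far a change depends on the probe. They share the RNA and the arrays, so their gap holds no error between arrays or cultures. Of the lipid genes, 9 had 2 or more probes above background on an array. Over the whole array, 2474 pairs of probes of the same gene that were above background at weeks 0 and 8 differed in their week 8 change by a median of 0.42 on the log2 scale, and 18.1% differed by more than 1. Differences under 0.42 in size, such as those of SQLE, LSS, NSDHL, SCAP, NPC1 and SCD at week 8, are thus no larger than the usual gap between probes of a gene.

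The week 2 array was the low point of many lipid genes, and the week 8 array that of others. At week 2, 22 of 26 measured members lay below their week 0 level, against 51.1% of 11699 genes, with a median difference of -0.40 against -0.02 for all genes. ELOVL6 alone was called. On the same array the neuronal markers summed to 20607, against 3008 at week 0, and the stromal markers to 21882, against 3864, and 5 of 16 genes of dividing cells were called lower. Their part in the result was not tested. All 7 measured genes of the sterol segment were below 0 at week 2, as were all 7 of fatty acid synthesis, though LSS (-0.37) had 0.29 on the mean of its probes and the second ACLY probe lay at 0.05. The other LSS probes were below background at week 0, with week 2 differences of at least 0.04 and 0.00. The exceptions above 0 were INSIG1 (0.82), NPC2 (0.52), MVK (0.38) and PMVK (0.07). MVK, close to background, had 0.13 without background correction.

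From week 2 to week 4, 22 of 27 measured members lay higher at week 4, against 48.0% of all genes, with a median of 0.30 against -0.02. None of the 27 was called in either direction, where 7.26% and 5.42% of all genes were called higher and lower. INSIG1 (0.91), SQLE (0.90), TM7SF2 (0.80), ABCA1 (0.73) and FASN (0.60) had the largest positive differences. The 2 comparisons share the week 2 array. Of the 25 genes above background on all arrays, 10 (40.0%) had their lowest value at week 2, against 14.0% of all such genes, and 8 (32.0%) at week 8, against 25.4%. Under scaling to the 75th percentile, 23 of 26 lay below week 0 at week 2, against 56.7% of all genes, and 18 of 27 lay above week 2 at week 4, against 41.9%.

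**Figure D3:**
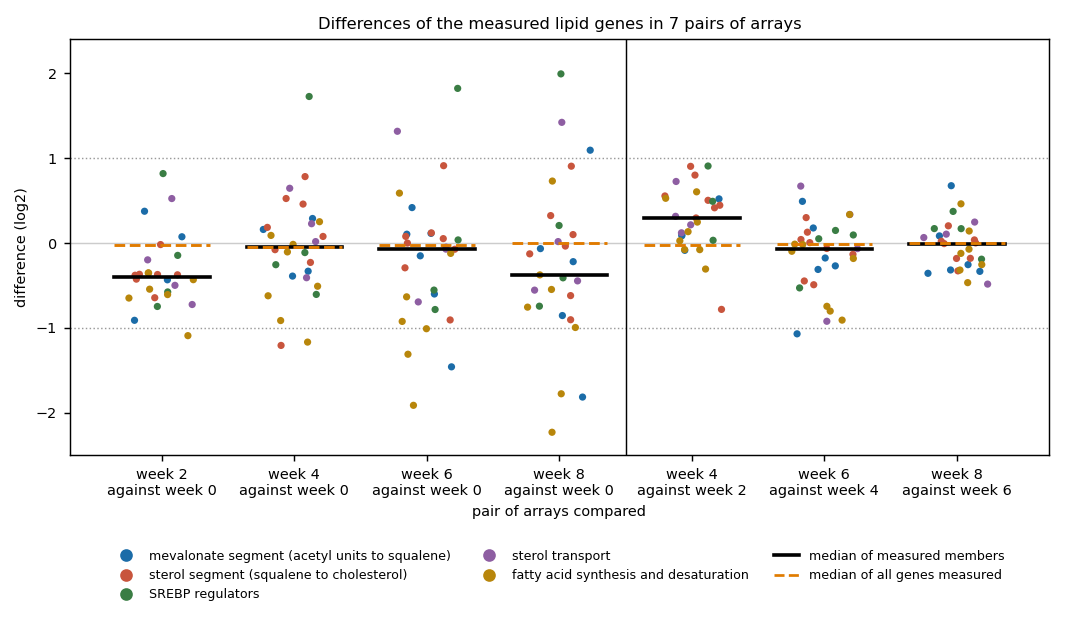
Difference (log2) of each measured gene of the list in 7 pairs of arrays, coloured by role, with the median of the measured members (black bar) and of all genes measured (dashed orange), and dotted lines at 2-fold. The members' median is -0.40 for week 2 against week 0 and 0.30 for week 4 against week 2, where the median of all genes is -0.02 in both. For week 8 against week 0 the 2 medians are -0.37 and 0.00.

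Later steps moved few of these genes. From week 4 to week 6, ACAT2 was the 1 lower call among 30 measured members, and none was higher, against 4.26% lower and 6.23% higher over all genes. ABCA1 (-0.92), FADS1 (-0.91) and ACLY (-0.80) came next. From week 6 to week 8, none of 29 was called, against 1.92% higher and 1.08% lower over all genes. The members' medians were -0.06 and -0.01 in these steps. Against week 0, 18 of 27 measured members lay lower at week 8, where 6123 of 12346 genes did. The members' median was then -0.37, against 0.00 for all genes, close to the -0.40 of week 2.

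Other lipid genes were taken from 7 lists of neighbouring steps. Their counts are given with background correction and quantile normalization only, and not with other processing. In the isoprenoid branch, which draws on the same farnesyl diphosphate, 4 of 10 measured genes (40%) were lower at week 8 and none higher, against 15.4% and 16.8% of all genes. PDSS1, which builds the side chain of coenzyme Q, fell 3.93-fold (-1.69 on a second probe), COQ2, which attaches that chain, fell 3.08-fold, and ICMT, which methylates prenylated proteins, fell 2.59-fold. PDSS2, the partner of PDSS1, fell 2.00-fold, at the limit of a call. The list median was -0.69 at week 8, against 0.00 for all genes measured.

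Among other genes of cholesterol synthesis and uptake, LRP8, a receptor for apolipoprotein E, was 2.58-fold lower at week 8 (-1.36 on a second probe), and the other 7 of 8 measured were not called. Of 9 measured genes of SREBP cleavage and degradation, MBTPS1, the protease that first cuts SREBP, was 2.47-fold higher, with 0.35 on a second probe. Of 12 measured liver X receptor genes and targets, 4 were higher (33.3%) and 3 lower (25%) at week 8, against 16.8% and 15.4% of all genes. OSBPL5, a sterol-binding protein gene, rose 4.34-fold (1.77 on a second probe), RXRB, a partner receptor, rose 3.12-fold and RXRA and ABCG4 were also higher. APOC1, an apolipoprotein gene, fell 3.54-fold, and NR1H3, the gene of liver X receptor alpha, and MYLIP were also lower. The MYLIP difference, 2.00-fold, was at the limit of a call.

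Of 19 other genes of fatty acid synthesis, 2 were higher (10.5%) and 5 lower (26.3%) at week 8, against 16.8% and 15.4% of all genes. SCD5, a second stearoyl-CoA desaturase gene, had signals of 152.6, 1643.8, 1591.3, 1561.5 and 1754.7 at weeks 0, 2, 4, 6 and 8. It was below background at week 0 alone and at least 29.2-fold higher at week 8, beside an SCD difference of -0.37. ACSL1, which activates long-chain fatty acids, had signals of 297.9, 193.5, 230.8, 561 and 928.3 and was 3.85-fold higher at week 8, while ACSL4, which favours arachidonic acid, was lower. ELOVL5, the elongase of polyunsaturated fatty acids, had signals of 4411.8, 1771.2, 1584.5, 1097.9 and 1131.3 and was 3.82-fold lower. MID1IP1, IDH1 and SLC25A1 were also lower, but a second IDH1 probe differed by 1.15 in the other direction.

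Of 18 measured genes of glycerolipid and phospholipid synthesis, 2 were higher (11.1%) and 3 lower (16.7%) at week 8, below and near the shares of all genes. AGPAT5, an acyltransferase gene, fell 5.58-fold, LPIN1, a phosphatidate phosphatase gene, rose 3.41-fold and PCYT1B, of phosphatidylcholine synthesis, fell at least 2.66-fold. AGPAT2 was higher and CDS1 lower. Of 19 measured genes of fatty acid oxidation, 3 were higher (15.8%) and 2 lower (10.5%), near and below the shares of all genes. CPT2, the inner carnitine palmitoyltransferase gene, fell 5.30-fold and HADH fell 2.68-fold, whereas ACADVL, which starts the breakdown of very long chains, rose 2.96-fold, with -0.17 and 0.93 on 2 further probes, and SLC25A20 and PPARGC1A were also higher. The list medians at week 8 were -0.17 for glycerolipid synthesis and 0.27 for oxidation.

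**Figure D4:**
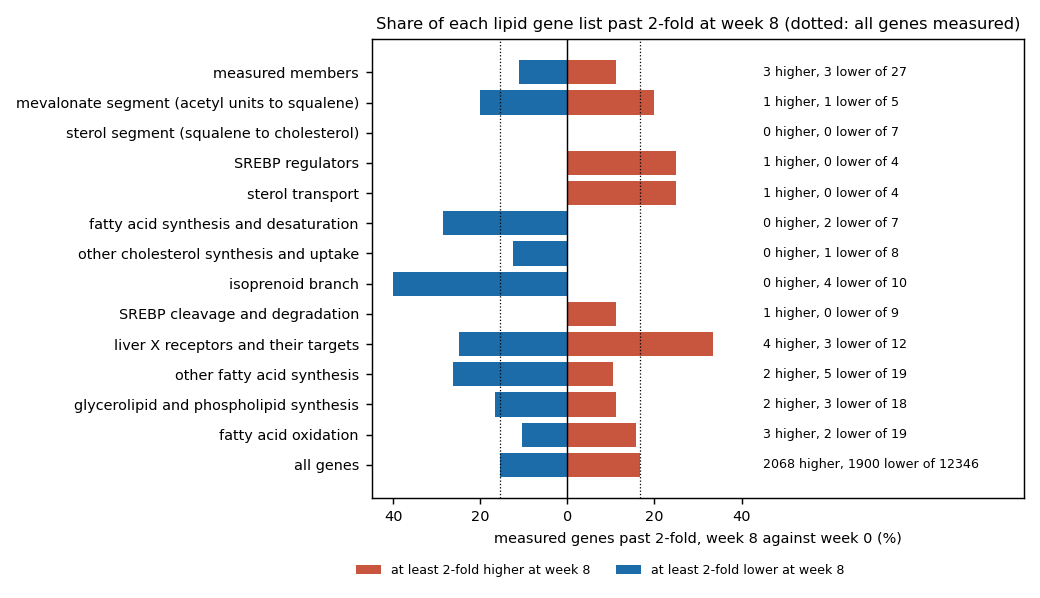
Share (%) of the measured genes of each list that were at least 2-fold higher (right) or lower (left) at week 8 than at week 0, for the lipid genes and their roles, the 7 neighbouring lists and all genes, with counts at the right and the all-gene shares dotted. The measured members have 3 higher and 3 lower of 27, and the sterol segment has none of 7.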

How the data were processed

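Gene expression was measured on 5 single-colour Illumina bead arrays, 1 per week, all on 1 chip, so the place on the chip and the week cannot be told apart. The deposited table before normalization holds, per the file headers, 1 linear intensity per probe and array, the mean over its beads, with lowest values between 90.0 and 98.7 and thus no background subtracted. Beside it the deposited detection score is a fraction, per the file headers, taken here as the complement of a detection p-value. The authors' processed intensity, deposited separately, had a median of 133.1 to 133.2 per array, by a method not given in the sources used here.

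Background correction and normalization used neqc of limma 3.58.1 in R 4.3.3 (background from the detection p-values, offset 16, quantile normalization, log2). Later steps used Python 3.11.15, pandas 2.3.3 and numpy 2.4.6. Of 47317 probes, 30110 had 1 gene symbol, 8 had several and 17199 were not listed. Symbols were updated through Entrez identifiers for 30071. Each gene was read from its probe of highest mean among those above background on an array. Below background, the larger of the value itself and its array's lowest value above background was used. With 1 array per week no test was run, no p-value is given, and the number of arrays limits the precision. On simulated arrays of week 8 against week 0, all 50 probes changed 4-fold each way were called. Of those changed 2.5-fold, 48 of 50 each way were called, and 0 of 17179 unchanged ones. The noise SD of 0.1 was set and not estimated, and is small beside the cutoff of 1 on the log2 scale. The 0 calls thus give no rate of false calls for the real arrays. Recovery was not split by brightness. It cannot be carried over to dim probes such as those of HMGCS1, MVK, SREBF2 and FDPS.

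The members and lists were chosen with earlier results of these data known. Of the neighbouring lists, the rule named up to 3 genes with the largest called change, and further genes named to complete a count of 5 or fewer were chosen after their values were seen. Alternatives were no background correction, scaling to the 75th percentile, a detection p-value limit of 0.05, an offset of 50, averaging the probes of a gene, keeping only genes measured on all 5 arrays, and the authors' table.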

Additional observations from a re-analysis of the deposited data

How the results depend on the processing

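Scaling to the 75th percentile moved most counts of lower members. Under it the lower members at weeks 2, 4, 6 and 8 numbered 2, 4, 7 and 6, against 1, 2, 4 and 3 with quantile normalization, while 11.6%, 16.9%, 20.4% and 20.5% of all genes were lower under it, against 9.28%, 11.5%, 14.1% and 15.4%. Under it 1 member was higher at week 6, against 2. It added lower calls for ACACA (weeks 4, 6 and 8), EBP (weeks 6 and 8), ACAT2 (week 2), AACS (week 4), ABCA1 (week 6) and FADS1 (week 8), while the median of all genes itself moved to -0.11, -0.19, -0.19 and -0.17 at weeks 2, 4, 6 and 8. With the mean of a gene's probes 2 members were lower at week 2, 0 were higher at week 4 and 1 at week 6. Without background correction and with the authors' processed values 0 members were lower at week 2, where ELOVL6 missed the limit. In these settings 3.85% and 3.59% of all genes were lower at week 2. The other counts stayed within 1.5 times. The members' medians at weeks 2, 4, 6 and 8 were below 0 in every setting, but under scaling they were -0.60, -0.35, -0.50 and -0.55, against -0.40, -0.05, -0.07 and -0.37. Of 16 calls of single members, those of ACAT2 and ACLY (weeks 6 and 8), EBP (week 4), NPC2 (week 8) and ELOVL6 (weeks 4 and 6) stood in all 7 alternatives, and NPC2 at week 6 was lost under scaling. The calls of INSIG1 at weeks 4, 6 and 8 and of ELOVL6 at week 8 were lost on the mean of their probes, which includes a dim probe. That of INSIG1 was near background, while that of ELOVL6 was above background at weeks 0 and 8. HMGCS1 and AACS lost theirs in 3 alternatives each. No call changed sign. No paired analysis was possible because each week has 1 array. Genes near background, such as HMGCS1, MVK, FDPS, HSD17B7, FADS2 and SREBF2, are limited by signal over background.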
